A study of Mus musculus with 54 samples.

Results

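Subdural CNS-associated macrophages (sdCAMs, which comprise perivascular and leptomeningeal macrophages) were compared with microglia (MG) of the same brains in resting Ccr2-/- mice. The comparison took in 6 of the 54 libraries of the series, namely all libraries labelled Ccr2 KO and untreated+PBS, with 1 sdCAM and 1 MG library from each of 3 mice, called 1m, 3m and 5f in the labels. These mice were of the B6.129S4-Ccr2tm1Ifc/J strain, in which Ccr2 is deleted in every cell from the germline on. They had been given neither vehicle nor BLZ945 and were injected with PBS, and their macrophages were sorted 12 h later from brain devoid of choroid plexuses. The age of the mice was not stated in the labels. Other libraries of the series served as a reference, with 3 mice a group. They came from untreated+PBS wild-type (WT) mice, from Ccr2-/- mice injected with lipopolysaccharide (LPS, a bacterial endotoxin) 8 weeks after vehicle or BLZ945, and from Ccr2CreERT2/CreERT2:R26tdT/tdT reporter mice given BLZ945, tamoxifen and PBS. BLZ945 inhibits the CSF1 receptor and depletes macrophages, and in reporter mice tamoxifen labels cells that express Ccr2 with tdT. WT and Ccr2-/- libraries carried batch label 1 and reporter libraries batch label 2. The untreated WT sdCAM libraries of mice 9 and 14, but none of Ccr2-/- mice, were marked for an IEG correction that the labels do not explain. Where the study describes its sorts, CD11b (the product of Itgam) and CD206 (the product of Mrc1) were part of the gate, so Mrc1 is a check of the labels and not a finding.

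Microglia live within the brain parenchyma, whereas sdCAMs line its vessels and its inner meninges. Both descend from yolk sac precursors and depend on signalling through the CSF1 receptor, but their surroundings differ: microglia are known to require TGF-beta signalling and the transcription factor SALL1 to keep their identity, and border macrophages are known for scavenger receptors, C-type lectins and, in part of the cells, MHC class II. CCR2 is the chemokine receptor that lets classical monocytes leave the bone marrow, so that mice without it have few monocytes in blood. The comparison asks how far apart these neighbouring macrophages stand in resting mice without Ccr2.

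The libraries held 8124128 to 8929948 counts for sdCAMs and 8305204 to 10781114 counts for MG, so that 3 counts corresponded to 0.278 to 0.369 CPM (counts scaled to a library of 1e6 counts). Values given for single libraries are CPM, which are not scaled by gene length, and levels are compared within a gene only. Log2-transformed levels correlated between replicate libraries with r of 0.935 to 0.942 among sdCAMs and 0.973 to 0.977 among MG, across 11316 genes that are not independent replicates. Ccr2, the deleted gene, lay at 3.02, 2.46 and 5.59 CPM in sdCAMs and at 5.96, 5.1 and 7.1 CPM in MG of mice 1m, 3m and 5f. The mean in sdCAMs was 3.69 CPM ± 1.67 (SD, n = 3) against 31.3 ± 13.3 in WT sdCAMs, and in MG 6.05 ± 1 against 7.36 ± 3.36. With 3 mice a group, an exact two-sided permutation test cannot go below p = 0.1, which is what the sdCAMs gave (0.2 after adjustment over 2 tests). Transcripts of the Y chromosome marked both libraries of mouse 1m (Ddx3y at 142 and 133 CPM) and Xist both libraries of mice 3m and 5f (171 to 253 CPM), with Ddx3y at 3.32 CPM in the sdCAM library of mouse 3m as well. These transcripts do not tell mice 3m and 5f apart, and the labels do not explain the letters m and f.

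Upstream sequences of 3 marker genes, chosen after their values were seen, are shown first, so that promoters of sdCAM genes and of an MG gene can be read side by side. They hold the 250 bases before the transcription start in the RefSeq annotation of GRCm38.p6, 5′ to 3′ on the strand of the gene, with 3 short motifs in capitals: GAGGAA, a core recognised by PU.1 (the product of Spi1), TGCTGA, a half-site of the MAF factors, and TGANTCA, recognised by AP-1, each searched on both strands, so that the capitals also mark reverse complements. Mrc1 encodes the mannose receptor, Pf4 the chemokine platelet factor 4, and Sparc a secreted matrix protein of microglia.
Mrc1, chr2:14229164-14229413, strand +: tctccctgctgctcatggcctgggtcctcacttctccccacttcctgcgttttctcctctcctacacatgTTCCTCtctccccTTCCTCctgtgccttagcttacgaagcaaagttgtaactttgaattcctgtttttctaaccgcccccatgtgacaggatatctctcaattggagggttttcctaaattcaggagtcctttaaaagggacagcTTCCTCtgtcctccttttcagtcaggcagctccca
Pf4, chr5:90772185-90772434, strand +: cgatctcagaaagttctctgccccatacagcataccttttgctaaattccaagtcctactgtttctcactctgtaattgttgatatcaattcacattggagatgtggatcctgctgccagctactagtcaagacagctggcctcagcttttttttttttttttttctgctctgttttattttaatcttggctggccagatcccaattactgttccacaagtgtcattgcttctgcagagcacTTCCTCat
Sparc, chr11:55420081-55420330, strand -: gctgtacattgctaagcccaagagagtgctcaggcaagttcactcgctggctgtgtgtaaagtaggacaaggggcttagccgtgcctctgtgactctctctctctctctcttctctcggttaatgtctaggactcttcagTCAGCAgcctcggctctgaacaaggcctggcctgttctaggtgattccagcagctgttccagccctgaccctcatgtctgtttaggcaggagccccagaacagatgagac
For the markers, windows on 1 chromosome were left out. RefSeq promoters were matched for 10 of 12 sdCAM markers and for 7 of 12 MG markers. The RefSeq starts of some of them, P2ry12 and Mrc1 included, differ from every transcript start of these genes in the GENCODE annotation. GAGGAA occurred in at least 1 upstream window of 6 of the 10 sdCAM markers and of 1 of the 7 MG markers, TGCTGA in 3 and 1, and TGANTCA in 3 and 0. Of 32851 upstream windows of the same length, 23.3% held GAGGAA, 16.1% TGCTGA and 6.75% TGANTCA. Some genes have several windows, which raises their chance of a match, and a match is a string of letters, not a site shown to be bound.

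Expression was tested with edgeR's quasi-likelihood test with the mouse as a block, and a gene was called where the Benjamini-Hochberg adjusted p was under 0.05 and the log2 fold change over 1 in size. Of 11316 genes tested, 1068 (9.44%) were called higher in sdCAMs and 901 (7.96%) lower, while the median log2 fold change of all genes was -0.035. The 3 sdCAM libraries lay wholly above or wholly below the 3 MG libraries for 5264 genes (46.5%). Higher calls had a median log2 fold change of 2.51 and lower calls of -1.96, and 32.4% of the former but 19% of the latter exceeded 4 in size. No MG library held more than 3 counts for 128 of the 1068 higher calls, and no sdCAM library did for 48 of the 901 lower calls.

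**Figure D1:**
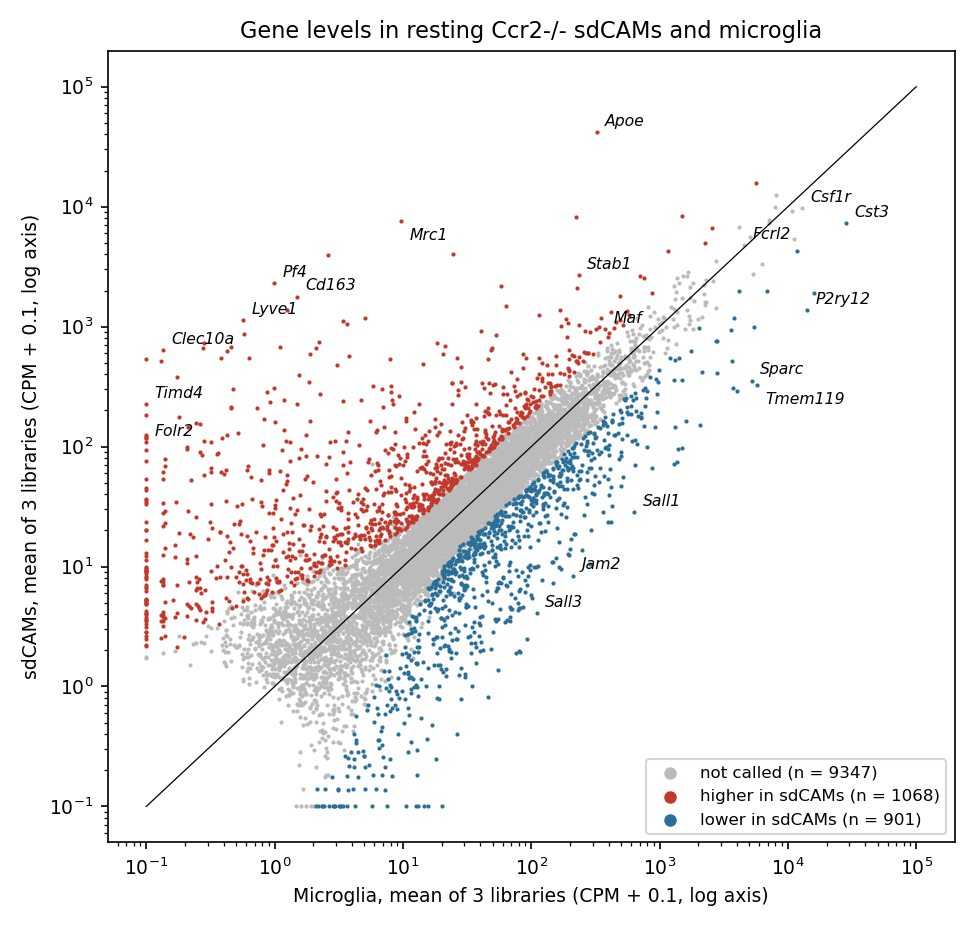
Mean level of each tested gene in 3 MG libraries (x axis) and 3 sdCAM libraries (y axis) of resting Ccr2-/- mice, in CPM plus 0.1 on log axes, with the line of equality. Of the 1068 genes higher in sdCAMs (red), 128 are at the detection floor in MG, and of the 901 lower genes (blue) 48 are at the floor in sdCAMs.

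Among the 15 higher calls with the smallest p were genes of lipid transport, oxidative defence and innate immunity. Apoe, the apolipoprotein that carries cholesterol in the brain, lay at 42353, 44212 and 39399 CPM in sdCAMs and at 393, 291 and 288 CPM in MG. This was a log2 fold change of 7.08 ± 0.11 (SE; adjusted p = 1.22e-08, edgeR), and no sdCAM library came near the MG range. Lyz2, which encodes lysozyme, lay at 7582 to 8824 CPM in sdCAMs and 198 to 262 CPM in MG (log2 fold change 5.25). Cybb, the catalytic subunit of the phagocyte NADPH oxidase, stood at 1065 to 1330 CPM against 3.37 to 7.15 CPM. The phospholipase gene Pla2g7 measured 949.5 to 1159 CPM against 3.49 to 3.71 CPM, and its relative Pla2g2d measured 332 to 464 CPM in sdCAMs while no MG library held more than 3 counts, at least 1190-fold higher. Tgfbi, a TGF-beta-induced matrix protein, was less one-sided, at 1434 to 1528 CPM against 57.9 to 73.6 CPM.

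The 15 lower calls with the smallest p were led by Sparc, at 264.5, 372 and 425 CPM in sdCAMs and 4972, 5333 and 5421 CPM in MG (log2 fold change -3.87 ± 0.12; adjusted p = 1.55e-07, edgeR). Selplg, the selectin ligand PSGL-1, lay at 240.1 to 363 CPM against 3961 to 4120 CPM. Jam2, a junctional adhesion molecule, lay at 7.63 to 9.49 CPM against 209.6 to 211 CPM. Ecscr, an endothelial chemotaxis regulator first known from vessels, showed the smallest remainder of any lower call with at least 100 CPM in MG, with a mean in sdCAMs of 3.6% of that in MG. Sgk1 (serum- and glucocorticoid-regulated kinase), at 46.7 to 92.3 CPM against 734 to 975 CPM, and the choline transporter gene Slc44a2, at 42.5 to 51.6 CPM against 385 to 432 CPM, were further members. All of these genes kept a measurable level in sdCAMs.

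The labels were checked with 12 markers of each population, chosen from earlier knowledge of these cells and of these data. All 12 sdCAM markers were higher in sdCAMs, beside 9.44% of all genes. None overlapped between groups, beside 46.5% of all genes without overlap in either direction. Because of how the markers were chosen, these counts check the labels and are not a finding. Lyve1, a hyaluronan receptor, lay at 991, 1380 and 1011 CPM in sdCAMs and at 1.41, 0 and 0 CPM in MG. Pf4 lay at 2274, 2416 and 2209 CPM against 2.17, 0.278 and 0.241 CPM. Cd163, the scavenger receptor for haemoglobin-haptoglobin complexes, lay at 1821, 1720 and 1799 CPM against 3.9, 0.186 and 0.12 CPM. In each of these genes the MG library of mouse 1m held the most sdCAM transcripts of the MG libraries. Folr2, a folate receptor, was at 0 in all MG libraries and at 86.8 to 123 CPM in sdCAMs, at least 341-fold higher. Stab1, a scavenger receptor of sinusoidal endothelium and macrophages, was the exception in size, at 2640 to 2723 CPM against 199 to 273 CPM (log2 fold change 3.57 ± 0.11), so that MG expressed it too.

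Of the 12 MG markers, chosen in the same way, 11 were lower in sdCAMs, beside 7.96% of all genes. P2ry12, the purinergic receptor that directs microglial processes to ATP, lay at 1209, 1259 and 1658 CPM in sdCAMs against 14548, 13875 and 13850 CPM in MG (log2 fold change -3.32 ± 0.10; adjusted p = 1.56e-07, edgeR). Tmem119 lay at 262, 277 and 430 CPM against 5283, 6050 and 5782 CPM. Sall1, the zinc-finger factor that holds microglial identity, lay at 17.5, 29.7 and 38.4 CPM against 622, 602 and 685 CPM. In all 3 genes the sdCAM library of mouse 5f was the highest of its group, far below any MG library. The exception was Fcrls, listed under its synonym Fcrl2, an Fc receptor-like gene used to mark microglia: it lay at 4594, 4867 and 4811 CPM in sdCAMs and 4248, 4574 and 4889 CPM in MG, and the groups overlapped (log2 fold change 0.11 ± 0.07; adjusted p = 0.276, edgeR).

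**Figure D2:**
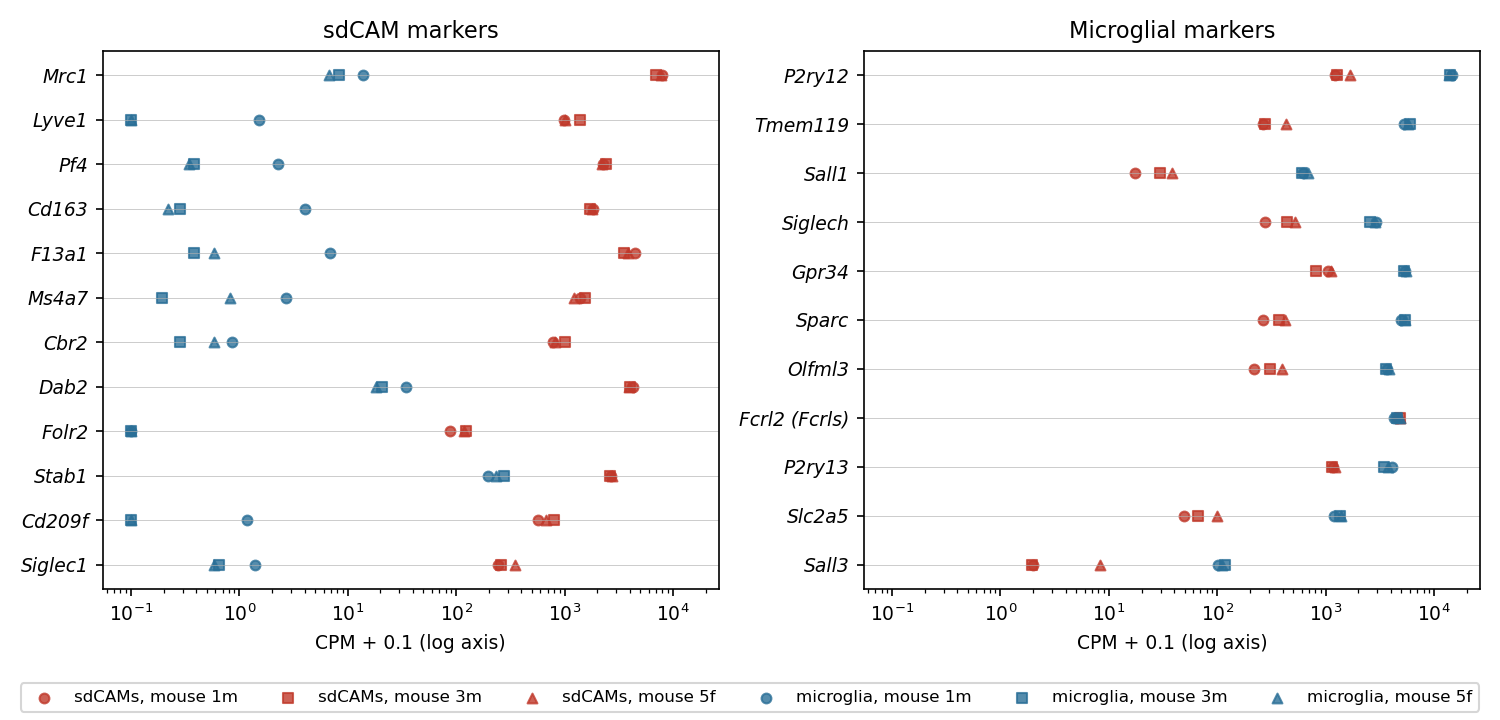
Level of 12 sdCAM markers (left) and 11 of the 12 MG markers (right) in each of the 6 libraries, in CPM plus 0.1 on a log axis; colour gives the population and shape the mouse. The groups are separate for all genes shown but Fcrl2, and the MG library of mouse 1m (blue circles) lies above the other MG libraries for most sdCAM markers.

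The level of each population's markers in the other was unequal. Taken per mouse, the median over the 12 MG markers of the level in sdCAMs was 7.1%, 8.78% and 11.1% of that in MG for mice 1m, 3m and 5f, whereas the median over the sdCAM markers in MG was 0.18%, 0.0112% and 0.0359% of that in sdCAMs. The single MG markers did not share a common remainder: in mouse 3m it ran from 1.56% for Sall3 and 4.59% for Tmem119 through 9.08% for P2ry12 to 33.2% for P2ry13, another ADP receptor, and 106% for Fcrl2. Over calls with a mean of at least 100 CPM in their own population, 60 of 344 higher genes had under 1% of that level in the other population, but 0 of 301 lower genes did. In sorted bulk RNA, a low level in all sdCAMs and a high level in a few MG among them cannot be told apart.

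In the other resting pairs the median over the MG markers in sdCAMs was 14.9%, 22.9% and 36.7% for the 3 WT mice, 7.08% to 11.8% for tdT+ and 7.54% to 15.2% for tdT- sdCAMs of the reporter mice. The Ccr2-/- pairs had been chosen with these levels known to be low, so the values are given as a description only. The median over the sdCAM markers in MG was at most 0.0772% in WT and 0.0643% in reporter mice.

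**Figure D3:**
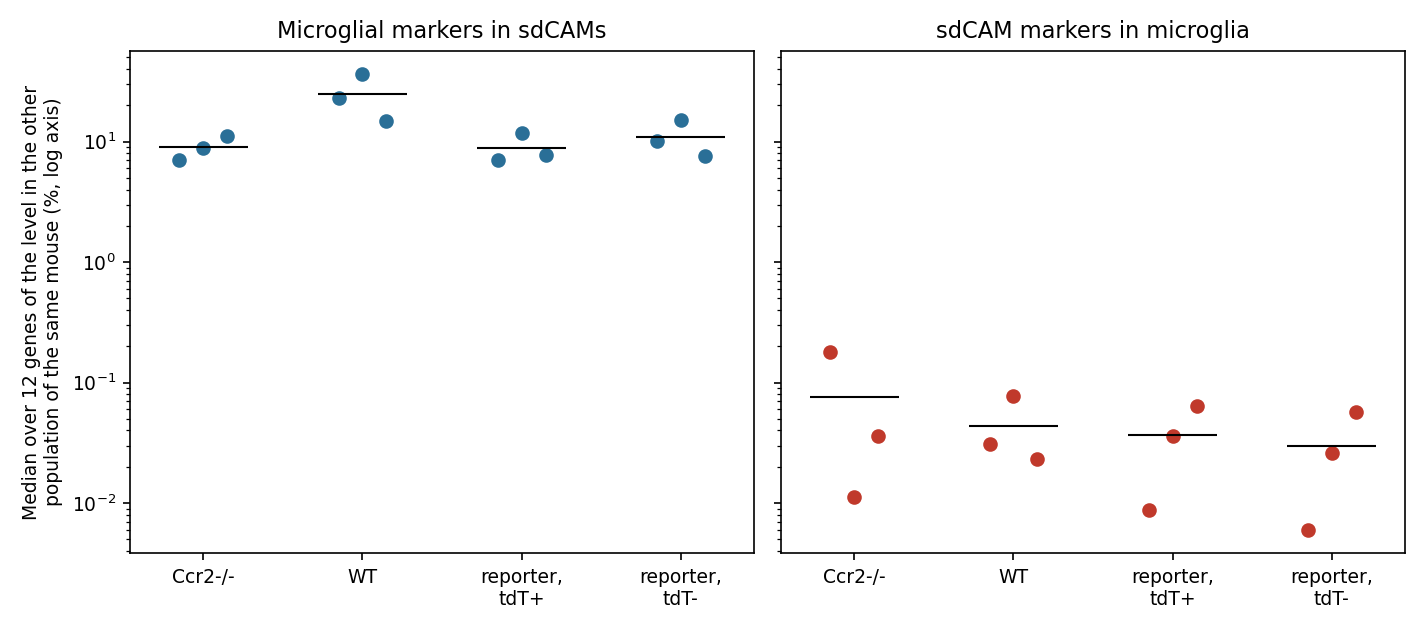
Median over 12 MG markers of the level in sdCAMs as a percentage of MG of the same mouse (left) and median over 12 sdCAM markers of the level in MG as a percentage of sdCAMs (right), on a log axis, with 1 point a mouse and the mean of 3 mice as a bar. All groups are resting; the Ccr2-/- means are 8.99% on the left and 0.0757% on the right, and the 3 WT points of the left panel lie at 14.9%, 22.9% and 36.7%.

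Of 23 transcription factors tested, 5 (21.7%) were higher and 6 (26.1%) lower in sdCAMs, beside 9.44% and 7.96% of all genes. Of 6 factors shared by macrophages 0 were higher and 1 lower, of 8 linked to microglia 0 and 4, and of 9 linked to other tissue macrophages 5 and 1. Spi1, the gene of PU.1, lay at 363 to 429 CPM in sdCAMs and 469 to 485 CPM in MG (log2 fold change -0.20; adjusted p = 0.211, edgeR), and Runx1 and Cebpb were likewise not called. Among the 6 shared factors, only Cebpa was called, lower in sdCAMs, at 51 to 71.6 CPM against 128 to 145 CPM. Sall1, Sall3, Smad3 and Bhlhe41 were the factors linked to microglia that were lower, while Mef2c, at 760 to 830 CPM against 798 to 864 CPM, was not called. Maf, which encodes c-MAF, was higher, at 1023, 946 and 896 CPM against 385, 386 and 365 CPM (log2 fold change 1.38 ± 0.10; adjusted p = 1.14e-05, edgeR). The groups did not overlap. In untreated WT mice the difference of Maf was larger (log2 fold change 4.53), at 10672, 12027 and 3399 CPM in sdCAMs against 421 to 473 CPM in MG. Between genotypes the change of the Maf difference was called (-3.11, adjusted p = 0.0121, edgeR). In this test genotype cannot be told apart from depth and from MG transcripts in sdCAMs, as described below. Spic, a factor known from iron-handling macrophages of the spleen and bone marrow, lay at 24.9 to 47.1 CPM in sdCAMs and did not exceed 3 counts in any MG library, at least 106-fold higher. Klf2 was higher as well, at 31.9 to 46.8 CPM against 7.69 to 12 CPM.

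Of 13 tested members of the pathway of TGF-beta, the cytokine on which microglial identity depends, 7 were lower in sdCAMs, 1 was higher and 5 were not called. Across all genes tested the shares were 7.96% lower and 9.44% higher. Tgfbr1, the type I receptor, lay at 437, 402 and 713 CPM in sdCAMs against 3480, 3793 and 3640 CPM in MG (log2 fold change -2.81 ± 0.16; adjusted p = 3.34e-06, edgeR). Tgfbr2, the type II receptor with which it pairs, lay at 993 to 1143 CPM against 931 to 1084 CPM and was not called. Among signal transducers, Smad3 was lower, at 22.3 to 35.3 CPM against 99.1 to 109 CPM, and Smad2 and Smad4 were not called. Inhibitors that the pathway itself induces were lower too: Smad7 lay at 4.31 to 15.4 CPM against 89.3 to 102 CPM, Skil at 46.6 to 95 CPM against 291 to 294 CPM, and Ski, a related repressor, at 152 to 175 CPM against 411 to 432 CPM. The coreceptor gene Eng, at 8.85 to 14.3 CPM against 136 to 157 CPM, and Itgav, whose integrin activates latent TGF-beta, went the same way. Nrros, whose product anchors latent TGF-beta on microglia and macrophages, was the member that was higher in sdCAMs, at 1064 to 1100 CPM against 427 to 486 CPM (log2 fold change 1.31).

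The receptor of CSF1, on which both cells depend for survival, differed little. Csf1r lay at 10287, 9077 and 9688 CPM in sdCAMs and 12234, 13212 and 12954 CPM in MG, a log2 fold change of -0.36 ± 0.07 (adjusted p = 0.00382, edgeR) that did not reach the limit on size although the groups did not overlap. Csf3r, the receptor of the granulocyte factor G-CSF, was lower in sdCAMs, at 109 to 138 CPM against 369 to 538 CPM. Csf1, the ligand of CSF1R, was close to the limit of a call, at 10.2 to 12.5 CPM against 21.2 to 26.9 CPM (log2 fold change -1.02). Its call was lost without mouse 1m, 3m or 5f, without the MG library of mouse 1m or 3m and without the sdCAM library of mouse 3m, at -0.87 to -1.15.

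**Figure D4:**
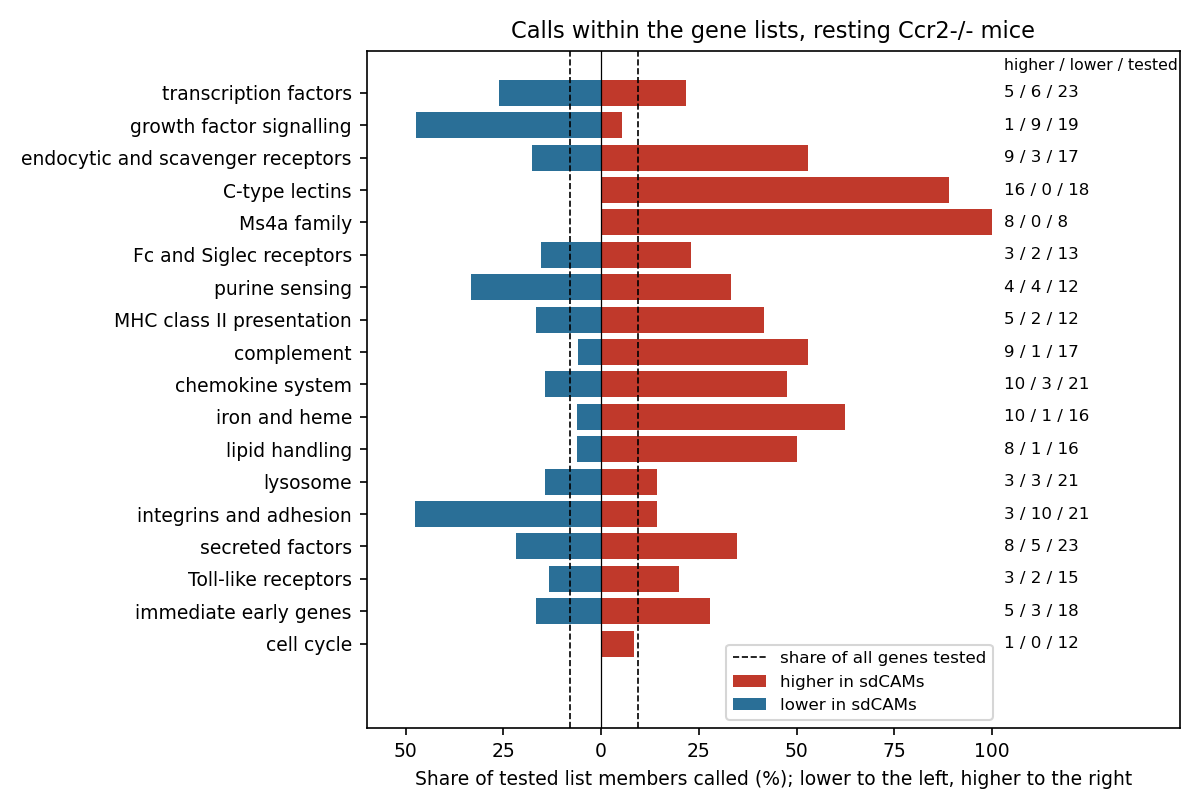
Share of the tested members of each gene list called higher (red, right) or lower (blue, left) in sdCAMs, in percent, with counts of higher, lower and tested members beside the bars; the dashed lines mark the shares of all genes tested, 9.44% and 7.96%. C-type lectins and the Ms4a family stand wholly on the right, and TGF-beta and CSF signalling and integrins mostly on the left.

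Of 17 endocytic and scavenger receptors tested, 9 (52.9%) were higher and 3 (17.6%) lower, beside 9.44% and 7.96% of all genes. Their median log2 fold change was 3.57. Colec12, a scavenger receptor with a collectin domain, was at 0 in all MG libraries and at 476 to 595 CPM in sdCAMs, at least 1680-fold higher. Timd4, a phosphatidylserine receptor of long-lived tissue macrophages, was likewise at 0 in MG and at 191 to 266 CPM in sdCAMs, at least 700-fold higher. Cd36 lay at 875, 521 and 625 CPM against 3.03, 0 and 0 CPM, and Msr1 at 518 to 617 CPM against 1.2 to 7.04 CPM. Receptors for apoptotic cells split by gene: Axl was higher in sdCAMs, at 314 to 375 CPM against 14.9 to 36.1 CPM, and Mertk lower, at 284 to 391 CPM against 886 to 1032 CPM. Trem2, a lipid-sensing receptor of microglia, was lower at 588 to 651 CPM against 1658 to 1835 CPM, and Havcr2, the gene of TIM-3, at 44.8 to 64.3 CPM against 512 to 538 CPM.

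Of 18 C-type lectins tested, 16 (88.9%) were higher and 0 lower, beside 9.44% and 7.96% of all genes. Clec10a, a galactose-type lectin, lay at 553, 624 and 742 CPM in sdCAMs and did not exceed 3 counts in any MG library, at least 1990-fold higher. Its relative Mgl2 lay at 476, 710 and 1020 CPM against 0.542, 0 and 0 CPM, with mouse 5f the highest. Cd209a lay at 419 to 640 CPM, at least 1610-fold higher than in MG. Cd209b and Cd209g were at 0 in MG and at least 369-fold and 370-fold higher. Clec4n, which encodes Dectin-2, lay at 560 to 657 CPM against 0 to 0.649 CPM, while Clec7a, which encodes Dectin-1, differed less, at 196, 126 and 129 CPM against 41.9, 28.7 and 32.3 CPM (log2 fold change 2.16). Clec5a and Cd302 were not called. All 8 tested members of the Ms4a family of membrane proteins were higher, from a log2 fold change of 1.54 for Ms4a6d to 10.9 for Ms4a4a and 11.4 for Ms4a14. Ms4a14 was at 0 in all MG libraries and at 30.2 to 49 CPM in sdCAMs, so its fold depends on the fit's prior count. Members of the Cd209, Clec4a and Ms4a6 groups are near copies of each other, so that reads of single members are uncertain.

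Antigen presentation showed a split between the class II molecules and their editors. Of 12 members tested, 5 (41.7%) were higher and 2 (16.7%) lower, beside 9.44% and 7.96% of all genes. Cd74, the invariant chain, lay at 3369, 1895 and 1259 CPM in sdCAMs and at 99.9, 37.1 and 37.1 CPM in MG (log2 fold change 5.32 ± 0.15; adjusted p = 1.1e-07, edgeR). H2-Aa lay at 806, 468 and 331 CPM against 20.1, 1.76 and 1.69 CPM. In H2-Aa, H2-Ab1 and H2-Eb1 alike, mouse 1m held the highest level in both populations. Ciita, the master regulator of these genes, was low but higher in sdCAMs, at 1.82 to 10.2 CPM against 0 to 0.557 CPM. Its call (adjusted p = 0.0114, edgeR) was lost without mouse 1m (0.0581) and without the MG library of mouse 1m (0.0567) or 5f (0.0591). The loading modulators H2-Oa and H2-Ob, by contrast, were lower in sdCAMs, H2-Oa at 1.01 to 5.17 CPM against 30.3 to 34.6 CPM and H2-Ob at 4.59 to 8.25 CPM against 61.2 to 71.1 CPM. The peptide editor H2-DMb1, at 101 to 132 CPM against 116 to 141 CPM, was not called.

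The complement genes of C1q were not called. C1qa lay at 5118, 6294 and 5294 CPM in sdCAMs and 5103, 4952 and 5257 CPM in MG, and the adjusted p of C1qa, C1qb and C1qc ran from 0.17 to 0.392 (edgeR). Of 17 complement genes tested, 9 (52.9%) were higher and 1 (5.88%) lower, beside 9.44% and 7.96% of all genes. C4b lay at 1225, 995 and 1117 CPM against 4.87, 3.9 and 1.08 CPM. C2 lay at 83.9 to 107 CPM in sdCAMs, at least 306-fold higher, and Cfp, the gene of properdin, at 203 to 220 CPM against 0.482 to 0.867 CPM. The complement regulator Cd55 was at 0 in MG and at 61.7 to 90.8 CPM in sdCAMs, at least 236-fold higher. Itgam, which encodes CD11b and was part of the sort, was the lower gene, at 164 to 237 CPM against 528 to 568 CPM.

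Chemokine ligands were mostly higher in sdCAMs. Of 13 ligands tested, 8 were higher and 1 lower, beside 9.44% and 7.96% of all genes. Ccl7 lay at 167 to 245 CPM against 0.241 to 0.542 CPM, Ccl8 at 198 to 385 CPM against 0 to 0.758 CPM and Ccl24 at 179 to 273 CPM against 5.66 to 8.79 CPM. Ccl4, an inflammatory chemokine, was the lower one, at 7.88 to 8.76 CPM against 24.7 to 32.2 CPM. Of 8 chemokine receptors, 2 were higher and 2 lower. Ccr1 lay at 648, 696 and 648 CPM in sdCAMs and at 0.433, 0.0928 and 0 CPM in MG (log2 fold change 11.8 ± 0.3; adjusted p = 1.05e-07, edgeR). Cx3cr1, the receptor for neuronal fractalkine, was lower in sdCAMs, at 1990, 1727 and 2255 CPM against 6752, 6855 and 6823 CPM. Among purinergic receptors, P2rx4 and P2rx7, which are ATP-gated channels, were higher in sdCAMs, at 470 to 563 and 571 to 650 CPM against 117 to 125 and 233 to 288 CPM, while P2ry12, P2ry13, P2rx1 and the adenosine receptor gene Adora3 were lower.

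Of 16 tested genes of iron and heme handling, 10 (62.5%) were called higher and 1 (6.25%) lower, beside 9.44% and 7.96% of all genes. Fth1 and Ftl1, the ferritin chains, lay at 4092 to 4481 CPM and 989 to 1058 CPM in sdCAMs against 1133 to 1204 CPM and 228 to 244 CPM in MG. Hmox1, which degrades heme, lay at 132 to 209 CPM against 39.4 to 48.2 CPM, and Blvrb, a biliverdin reductase of the next step, at 295 to 335 CPM against 28.1 to 35.3 CPM. Cp, the ferroxidase ceruloplasmin, lay at 576 to 622 CPM against 0.361 to 4.08 CPM. The iron exporter gene Slc40a1 was close to the limit of a call, at 834 to 1178 CPM against 443 to 586 CPM (log2 fold change 1.03). Its call was lost, at 0.81 to 0.99, without mouse 1m, without either library of mouse 1m and without the sdCAM library of mouse 5f. Of 16 tested lipid genes, 8 were higher and 1 lower, the latter being the cholesterol exporter gene Abcg1, at 25 to 28.1 CPM against 158 to 181 CPM. Pltp, a phospholipid transfer protein, lay at 607 to 724 CPM against 0.557 to 3.36 CPM.

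Of 21 lysosomal genes tested, 3 were higher and 3 lower (14.3% each, beside 9.44% and 7.96% of all genes). Ctsb and Ctsc, cathepsins B and C, were higher in sdCAMs, at 15118 to 16771 and 7907 to 8765 CPM against 5552 to 5744 and 1412 to 1609 CPM. Ctsd and Cst3 were among the lower genes, and Cst3, the gene of the protease inhibitor cystatin C, lay at 6286, 7546 and 7906 CPM against 28713, 27498 and 28390 CPM. Adhesion genes went mainly the other way from scavenging, with 10 of 21 lower (47.6%) and 3 higher (14.3%). Itgb5 lay at 701 to 845 CPM in sdCAMs against 2593 to 3087 CPM, and Itgb3 at 0.123 to 15.3 CPM against 83.5 to 103 CPM. Cd9, a tetraspanin, lay at 104 to 202 CPM against 1891 to 2172 CPM. Vcam1, which binds the integrin VLA-4, and Itga4, a chain of that same integrin, were both higher in sdCAMs, Vcam1 at 666 to 819 CPM against 17.1 to 19.3 CPM and Itga4 at 117 to 128 CPM against 0 to 0.975 CPM.

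Of 23 secreted factors tested, 8 (34.8%) were higher in sdCAMs and 5 (21.7%) lower, beside 9.44% and 7.96% of all genes. Igf1, a trophic factor, lay at 455, 345 and 377 CPM against 2.38, 0.278 and 1.69 CPM. Gas6, a ligand of AXL and MERTK, lay at 2205, 1911 and 2189 CPM against 223, 211 and 241 CPM. Bmp2 was at 0 in MG and at 83.4 to 106 CPM in sdCAMs, at least 290-fold higher. Pdgfb was lower in sdCAMs, at 28.8 to 36.2 CPM against 117 to 136 CPM. Among cytokines, Il1a, at 5.26 to 15.6 CPM against 128 to 174 CPM, and Il6, at 0 to 2.46 CPM against 17.5 to 20 CPM, were lower in sdCAMs, whereas Tnf and Il1b were not called.

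Transcripts of other cells were measured beside these groups, and their part in the results was not tested. Summed over 10 monocyte markers, sdCAM libraries held 0 to 8.49 CPM and MG libraries 1.21 to 5.31 CPM, with Ly6c2 at or near 0 throughout. For its stroke experiment the study describes a gate that left out cells with Ly6C, Ly6G or CD11c. If the same gate was used here, low levels of monocyte and neutrophil markers would follow from the sort, which was not tested. Markers of T and NK cells summed to at most 8.67 CPM in any library, with Cd3e, Cd3d and Ncr1 at 0, and mast cell markers to at most 0.278 CPM. The 8 neutrophil markers summed to 84.6 CPM in the MG library of mouse 1m and to at most 3.36 CPM in sdCAMs. The same library held Ttr, a choroid plexus transcript, at 72.7 CPM against 0 and 1.81 CPM in the other MG libraries. Without this MG library 1725 genes were called in place of 1969. Of the fibroblast markers, Dcn and Slc6a13 reached 2.09 to 12 CPM in sdCAMs and were at 0 in MG, beside the higher secreted and matrix genes. Without mouse 1m, Dcn was not called (adjusted p = 0.0737, edgeR). Oligodendrocyte markers summed to 322 to 811 CPM in sdCAMs and 233 to 269 CPM in MG, with the highest sum in the library of mouse 5f. Dendritic cell markers were mixed: of 5 tested, 3 were higher in sdCAMs and 2 lower, beside 9.44% and 7.96% of all genes. Zbtb46 was higher, at 32.9 to 36.6 CPM against 1.67 to 3.25 CPM, beside the class II genes. Cd209a, also listed as a C-type lectin, and Kmo, at 18.7 to 47.6 CPM against 0 in MG, were higher too. Itgae and Siglecg were lower, and Clec9a and Ccr7 were at 0 in all 6 libraries. The list summed to 473 to 711.5 CPM in sdCAMs and 13 to 15.9 CPM in MG.

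The same comparison in untreated WT mice used 6 other libraries, with sdCAM totals of 1929070 to 3049028 counts. There 962 of 11057 genes (8.7%) were higher and 329 (2.98%) lower in sdCAMs. Of the 944 higher calls of Ccr2-/- mice that could be tested in WT mice, 426 were called higher there, which is 45.1% of them and 46.6% of the 915 WT calls tested in both. Of 894 lower calls, 196 were called lower in WT mice, which is 21.9% of them and 59.6% of the 329 WT calls. The median log2 fold change of the lower calls was -1.96 in Ccr2-/- and -1.19 in WT mice. Opposite calls numbered 0 of the higher and 6 of the lower genes. A test of the difference between genotypes called 45 genes (0.364%) whose sdCAM-to-MG difference was shifted toward sdCAMs in Ccr2-/- mice and 241 (1.95%) shifted toward MG. These counts rested on single mice, with 11 calls in all without WT mouse 14, 121 without WT mouse 9, 1748 without WT mouse 15, and 51, 54 and 67 without Ccr2-/- mouse 1m, 3m and 5f. The WT counts did as well, with 202, 450 and 2182 calls in all without WT mouse 14, 9 and 15. Of the MG markers, Sall1 had log2 fold changes of -4.49 in Ccr2-/- and -1.72 in WT mice, and Sparc of -3.87 and -1.25 (adjusted p of the difference 0.00739 and 7.69e-04, edgeR). Sall3 had -4.93 and -0.26 and was not called in WT mice (adjusted p of the difference 0.00897, edgeR). P2ry12 had -3.32 and -2.16 and P2ry13 -1.62 and -1.79, with no called difference between genotypes. Sparc lay at 922, 1164 and 1712 CPM in WT sdCAMs, above every Ccr2-/- sdCAM library. Genotype, MG transcripts in sdCAMs and depth moved together here and cannot be told apart. Rn18s, Lars2 and Mir6236 were also high in the WT sdCAM libraries, as described below. Sex transcripts were not balanced between genotypes either, with Xist in WT mouse 9 and Ddx3y in WT mice 14 and 15. Their part was not tested.

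Resting differences were then set beside those of Ccr2-/- mice 12 h after LPS, which came from other mice and libraries. Titles of these LPS libraries name the other population than their cell type label and library name do, and the latter were followed. By these, Mrc1 lay at 1245 to 1398 CPM in sdCAMs and 3.44 to 5.39 CPM in MG after vehicle and LPS. After vehicle and LPS, 1092 of 12890 genes (8.47%) were higher and 1116 (8.66%) lower in sdCAMs, and after BLZ945 and LPS 916 (7.11%) and 937 (7.27%). Of the 1068 resting higher calls, 544 were called higher after vehicle and LPS (50.9% of them, and 56.6% of the 961 LPS calls tested in both) and 479 after BLZ945 and LPS. Of the 901 lower calls, 478 and 423 were called lower.

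A test of the sdCAM-to-MG difference after vehicle and LPS against that at rest called 336 genes (2.61%) with a more positive and 492 (3.82%) with a more negative difference. The resting mice had received no vehicle, and no Ccr2-/- mice were given vehicle and PBS. Effects of LPS and of the earlier vehicle therefore cannot be told apart. P2ry12 showed little change of its difference (log2 fold change -3.35 at rest and -3.27 after LPS; adjusted p of the change 0.911, edgeR) although its level after LPS was 117 to 136 CPM in sdCAMs and 1300 to 1747 CPM in MG. Fcrl2, not called at rest, lay at 305, 412 and 385 CPM in sdCAMs and 3091, 2851 and 2639 CPM in MG after LPS (change of the difference -2.78 ± 0.19; adjusted p = 3.98e-06, edgeR). Among sdCAM markers, Stab1 had a log2 fold change of 0.44 after LPS, at 300, 302 and 361 CPM against 252, 316 and 288 CPM, and Dab2, an endocytic adaptor, kept a smaller one, at 861 to 1179 CPM against 227 to 380 CPM. Mef2c, not called at rest, lay at 68.8 to 91.1 CPM in sdCAMs and 348 to 427 CPM in MG after LPS.

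**Figure D5:**
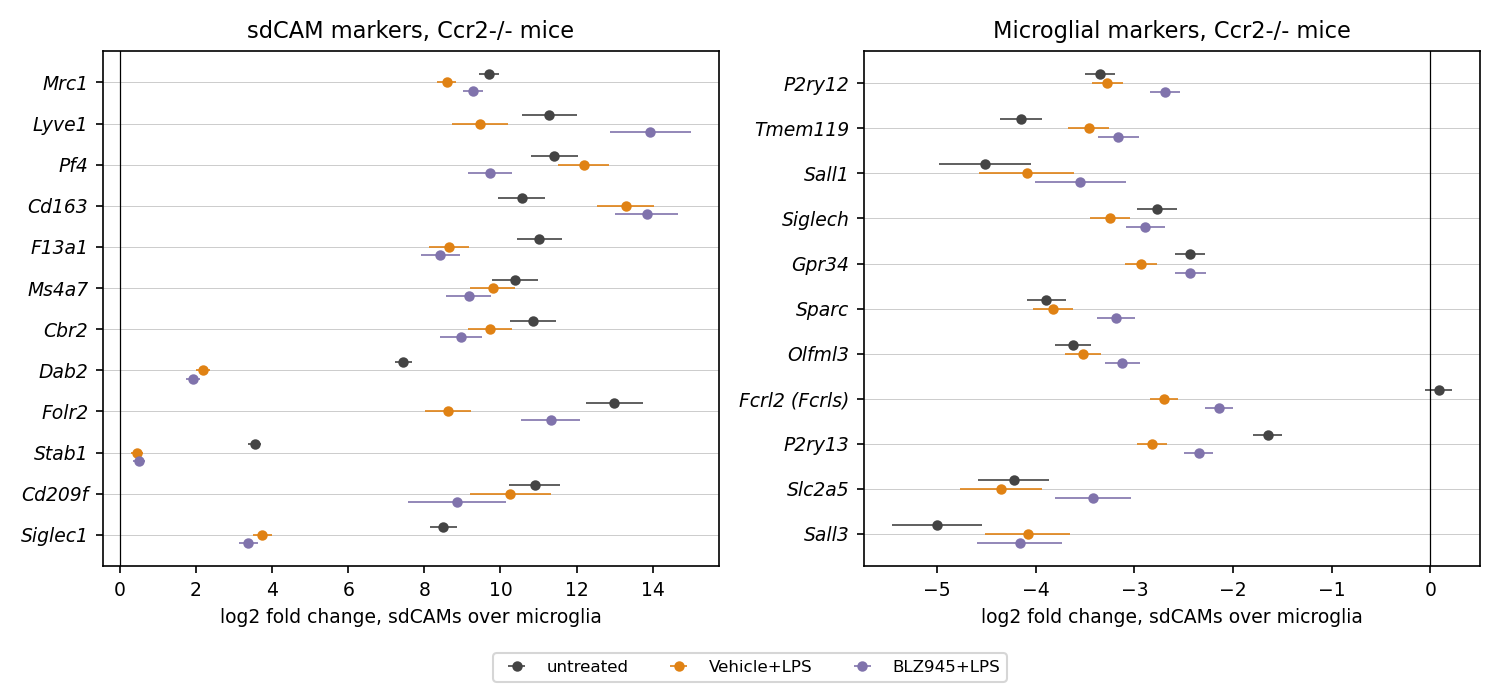
Fitted log2 fold change of sdCAMs over MG for 12 sdCAM and 11 MG markers in Ccr2-/- mice, untreated, after vehicle and LPS and after BLZ945 and LPS, with bars of 1 SE, from 1 fit of 18 libraries with 3 mice a condition. Dab2, Stab1 and Siglec1 move toward 0 and Fcrl2 away from it; values above 10 rest on MG libraries at or near 0 counts and depend on the fit's prior count.

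Opposite calls at rest and after vehicle and LPS were made for 25 of the higher and 14 of the lower genes, and 24 genes were opposite in both LPS conditions. List members with opposite calls after vehicle and LPS included Gas6, at 11.4, 13.3 and 17.4 CPM in sdCAMs and 43.2, 47.7 and 47.9 CPM in MG. Clec7a lay at 2.7 to 5.58 CPM against 14.7 to 33.2 CPM, and Slc40a1 at 17.6 to 31.5 CPM against 80 to 183 CPM. Ccl12, a monocyte-attracting chemokine, lay at 568 to 729 CPM in sdCAMs, close to its resting 431 to 718 CPM, and at 2072 to 2943 CPM in MG against 64.2 to 111 CPM at rest.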

How the data were processed

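Bulk RNA-seq of sorted macrophages was analysed. The authors amplified cDNA from picograms of RNA (SMARTer kit), prepared Nextera XT libraries, sequenced single reads, aligned them with STAR 2.7.11a and counted them with featureCounts 2.0.8. The deposited values were raw counts per gene symbol (33280 symbols, 0 unmatched columns). The strand setting was not stated, so overlapping antisense genes are uncertain, and the build was named ambiguously. No molecular identifiers were used, so detection floors cover counting error only. Nothing but the mouse label shows that replicates came from separate animals.

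Libraries were fitted with edgeR 4.0.16 (filterByExpr, TMM, quasi-likelihood, two-sided tests, Benjamini-Hochberg) in R 4.3.3, with the mouse as a block since both populations came from the same animals. Deviations of paired libraries from their group means correlated with r = 0.0983, 0.0102 and 0.0464 across genes. Levels are plain CPM without TMM. Genes with at most 3 counts in each library of a group have folds given as bounds. The fits were tested on simulated data. Members and gene lists were chosen with earlier results of these data known. Named genes were list members and, of calls without overlap and with at least 10 CPM, the 15 in each direction with the smallest p (5 for the difference tests), without predicted genes, and only some of them are described. Opposite calls, promoters, motifs and the limits of 100 CPM, 1% and log2 4 were chosen after values were seen; for difference tests, overlap was judged on differences per mouse. Alternatives included DESeq2 1.42.0, other filters and scaling, and omission of each mouse or library. Some members of the lists are not reported here.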

Additional observations from a re-analysis of the deposited data

Results flagged for a closer look

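The sdCAM-to-MG difference differed between untreated Ccr2-/- and WT mice for 286 genes in edgeR's test of the difference itself, and between LPS after vehicle and rest in Ccr2-/- mice for 828 genes.

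Between genotypes, the genes with the smallest p and a shift toward sdCAMs in Ccr2-/- mice were Ccr1, a chemokine receptor (change of the log2 difference 7.01), Ctsc (1.5), Stom, a membrane scaffold protein (2.03), Dse (1.88) and Ctsb (1.03). Ccr1 lay at 8.67 to 16.1 CPM in WT MG and at no more than 0.433 CPM in Ccr2-/- MG. Those with a shift toward MG were Lars2 (-8.23), Rn18s (-4.43), Sparc (-2.59) and Mir6236 (-6.83). Rn18s, 18S ribosomal RNA, lay at 6937, 10693 and 7027 CPM in WT sdCAMs and at 459 to 701 CPM in the WT MG and all untreated Ccr2-/- libraries. In the same WT sdCAM libraries Lars2 lay at 12178, 20905 and 62049 CPM and Mir6236 at 2119, 4761 and 8866 CPM. In WT MG these genes lay at 221 to 246 CPM and 63.8 to 135 CPM. Whether ribosomal RNA, Lars2 or Mir6236 transcripts in WT sdCAM libraries had a part in the other genotype differences was not tested.

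After vehicle and LPS, the difference was more positive than at rest for Sgms1 (2.98), Cnn2, an actin-binding calponin (4.35), Abhd17b (3.12), Itgam (2.32) and the dicarboxylate transporter gene Slc13a3 (2.62). Itgam, lower in sdCAMs at rest, lay at 931 to 1079 CPM in sdCAMs and 643 to 783 CPM in MG after LPS. The difference became more negative for Dab2 (-5.26), Ctsc (-3.37), Gpr65, a proton-sensing receptor (-5.04), Gatm, an enzyme of creatine synthesis (-3.17), and Ms4a6c (-3.33). Gpr65 lay at 88 to 109 CPM in sdCAMs after LPS, near its resting 92.8 to 118 CPM, but at 285 to 357 CPM in MG against 7.26 to 10.2 CPM at rest.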

How the results depend on the processing

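The count of 1969 calls stayed within 1.5 times itself under every other filter, scaling and tool tried and in the fit of all 18 Ccr2-/- libraries, at 1786 to 2233, and became 3118 without a limit on the fold and 1077 with a log2 limit of 2. It was 2049 without the replicate block, of which 1894 were shared. Leaving out 1 mouse or 1 library gave 1634 to 2166. Call stability was followed for 352 genes, namely the 342 list genes tested and the genes named for their small p. Of these, 197 were called, 163 were called under all 17 alternatives tried on them and 0 turned direction. The genes named for their small p were picked as strong calls and raise the share that held. Those lost most often were Soat1, Ccl5, Klf4, Ighd, Id3, Itgae and Pecam1. The WT count of 1291 was less stable, at 2297 with DESeq2, 2165 without a filter and 202 to 2182 without single mice (202 without mouse 14, 450 without mouse 9, 2182 without mouse 15). Without the replicate block it was 1894. The 286 genotype differences became 893 without the replicate block, 1179 with DESeq2, 1051 without a filter and 11 to 1748 without single mice, with 11 when WT mouse 14 was left out and 121 when WT mouse 9 was. The cause was not tested. The 828 LPS differences became 887 without the replicate block, and 612 to 1175 over all alternatives. As a ratio of summed CPM, MG markers in sdCAMs came to 18.6% and sdCAM markers in MG to 1.04% (means of 3 mice) in place of 8.99% and 0.0757%; leaving out mice gave 7.94% to 9.94% and 0.0236% to 0.108%, the lowest without mouse 1m. Depth limits genes under about 0.3 CPM, and 3 mice a group limit small differences.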

Other observations

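Of 15 Toll-like receptors and partners tested, which sense microbial products, 3 (20%) were higher and 2 (13.3%) lower in sdCAMs at rest, beside 9.44% and 7.96% of all genes. Tlr8, an endosomal RNA sensor, lay at 162 to 176 CPM in sdCAMs against 0 to 2.06 CPM in MG, and Tlr5, the flagellin receptor, at 70.2 to 96.1 CPM against 27 to 29.8 CPM. Tlr3, the sensor of double-stranded RNA, was lower in sdCAMs, at 42 to 47.4 CPM against 183 to 238 CPM. Tlr7, at 349 to 446 CPM against 426 to 454 CPM, and Tlr13 were not called.

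Immediate early genes, which respond within minutes and can be induced while tissue is dissociated, were uneven. Of 18 tested, 5 (27.8%) were higher in sdCAMs and 3 (16.7%) lower, beside 9.44% and 7.96% of all genes. Fos lay at 35.7, 77.9 and 116 CPM in sdCAMs against 1.41, 0.0928 and 2.17 CPM in MG, whereas Junb was lower, at 48.9 to 80.6 CPM against 171 to 225 CPM. Of 12 cell cycle genes tested, Cenpf alone was called, at 23.2 to 32.9 CPM in sdCAMs against 2.04 to 4.21 CPM; Mki67 stayed at or under 6.74 CPM in every library.

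Of the receptors for the Fc part of antibodies, Fcgr2b, the inhibitory one, was higher in sdCAMs, at 1622 to 2029 CPM against 470 to 514 CPM, and Fcgrt, the neonatal Fc receptor that recycles IgG, at 1298 to 1439 CPM against 157 to 172 CPM. Fcgr3, at 1994 to 2316 CPM against 2076 to 2327 CPM, was not called. Siglech and Siglecf were lower in sdCAMs and Siglec1 was higher, at 244 to 352 CPM against 0.482 to 1.3 CPM.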
